A study of Mus musculus with 15 samples.

Results

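Mouse neuromesodermal progenitor (NMP) derivatives that kept the Sox2 reporter were compared between 48 h and 7 d of culture in FGF/CHIR. The comparison rests on 3 of the 15 libraries of the series: 2 libraries of Sox2+ cells at 48 h and 1 library of Sox2+ cells at 7 d. These are the libraries that share reporter gate and medium by their labels and differ in time. Every library of the series came from the STR-KI embryonic stem cell line, whose genotype is Sox2::mCherry/WT, Tbxt::GFP/WT, so that 1 allele of each gene carries a fluorescent reporter. All cells had gone through the same NMP induction, with 48 h of 10 ng/mL FGF2 followed by 24 h of FGF2 with 5 µM CHIRON99021 (CHIR), an inhibitor of GSK3 that activates WNT signalling. For the 48 h group, NMPs were cultured in FGF/CHIR and sorted for Sox2::mCherry. For the 7 d library, Sox2::mCherry+ cells were cultured in FGF/CHIR and sorted again for Sox2::mCherry. The 2 groups used for reference shared this source and day. They were Sox2+ cells at 7 d in FGF alone (2 libraries) and double-negative cells at 7 d in FGF/CHIR, sorted for neither reporter (1 library). Whether the Sox2+ and double-negative libraries came from the same culture is not given in the labels. The rest of the libraries entered the estimate of the spread: 3 of NMPs sorted for both reporters, 2 of 48 h cells sorted for Tbxt::GFP (48 h Tbxt), 3 of double-negative cells from 7 d FGF/CHIR cultures of Tbxt::GFP+ cells (Tbxt-derived), and 1 of double-negative cells at 7 d in FGF. From which step the 7 d were counted, and whether libraries of a group came from separate cultures, is not given in the sources used here, so p-values measure only the spread between these libraries.

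NMPs are caudal cells of the elongating embryo that can form spinal cord and paraxial mesoderm. FGF and WNT signals keep them and their caudal neural descendants, the preneural progenitors, in an undifferentiated state, marked by Nkx1-2 and the Cdx genes, whereas a fall of these signals together with retinoic acid lets neural progenitor genes such as Pax6 come on. Hox genes are switched on in order along their clusters as the axis extends, with paralog groups 10 to 13 last and most caudal.

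The 7 d library held 9.73 M reads and the 48 h libraries 3.96 M and 4.38 M reads, as estimated from the step between low values, so 3 reads, taken as the floor of detection, equalled 0.308 CPM (reads scaled to a common library total) at 7 d and 0.757 and 0.686 CPM at 48 h. FGF Sox2+ library 2 was the shallowest of the series, with 0.799 M reads and a floor of 3.76 CPM, so its values of 0 are weak evidence of absence. These limits cover counting error only. The reporter genes went with the labels, and since Sox2 set the gate its level is no finding. Sox2 read 217 and 221 CPM at 48 h, 199 CPM at 7 d and 5.03 CPM in the double-negative cells. Tbxt, listed under its older symbol T, read 32.1 and 29.3 CPM at 48 h and 15.4 CPM at 7 d, against 284 to 445 CPM in the 3 NMP libraries. Neither gene passed the test of 7 d against 48 h described below (adjusted p = 0.936 and 0.378, limma). Mitochondrial transcripts made up 4.74 and 5.0% of the reads at 48 h and 5.41% at 7 d.

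More genes passed as higher than as lower at 7 d, and they were a small share of all genes. On log2(CPM + 1), a scale that understates the change of genes with low values, limma tested 12943 genes in 1 fit of all 15 libraries, with the spread of the replicated groups standing in for the single 7 d library, and called genes at a Benjamini-Hochberg adjusted p under 0.05. It called 212 genes higher at 7 d (1.64% of those tested) and 22 lower (0.17%), and each called gene lay outside the range of both 48 h libraries. Of all 12943 genes, 6453 were above both 48 h libraries at 7 d and 3465 below both. The median gene was 0.12 higher at 7 d on the log2 scale, and quantile normalization, which moved the median to -0.03, called 123 higher and 30 lower. The count depended on single libraries: it was 142 in all without NMP library 3, 87 and 94 without 48 h Sox2+ library 1 or 2, and 495 (425 higher, 70 lower, of 12842) without Tbxt-derived 7 d library 1, so counts in gene lists without it are to be read against that larger number. That library stood apart from its 2 replicates, with 1286 and 1312 genes at least 2-fold apart against 212 between the other two. The spread of a group of 2 libraries leaves the fit when either is left out. For FGF Sox2+ cells, outside this comparison, the fits without library 1 or 2 are therefore not separate results. Without 48 h Sox2+ library 1 or 2 the comparison is 1 library against 1, which widens the error for a given spread. In each of the 12 fits that left out 1 library, 55 of the genes called higher and 7 of those called lower passed again.

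By size alone, 116 genes at 7 d were at least 4-fold above both 48 h libraries (0.896%) and 7 at least 4-fold below both (0.0541%), on CPM + 1. Without 48 h Sox2+ library 2 there were 195 in all. The 7 d library differed at least 4-fold from 48 h library 1 in 195 genes and from library 2 in 178, and the 48 h libraries differed from each other in 109. In the 8 replicate pairs of the other groups this number ran from 0 to 323. The highest were the pairs with Tbxt-derived library 1 (314 and 323) and the FGF Sox2+ pair (197), which holds the shallowest library. Every other pair had at most 12. The total was thus within the range of replicates of other groups only through those pairs. Among the 234 called genes, 82 of those higher and 5 of those lower were also past 4-fold. A test against a 2-fold minimum left 16 genes, among them Hoxd11, Cyp26b1, Apod, Hoxa11os, Cdh11, Tfap2c, Lmx1b, Acadl and Oxct1 higher and the antisense transcript Hoxaas3 lower.

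**Figure D1:**
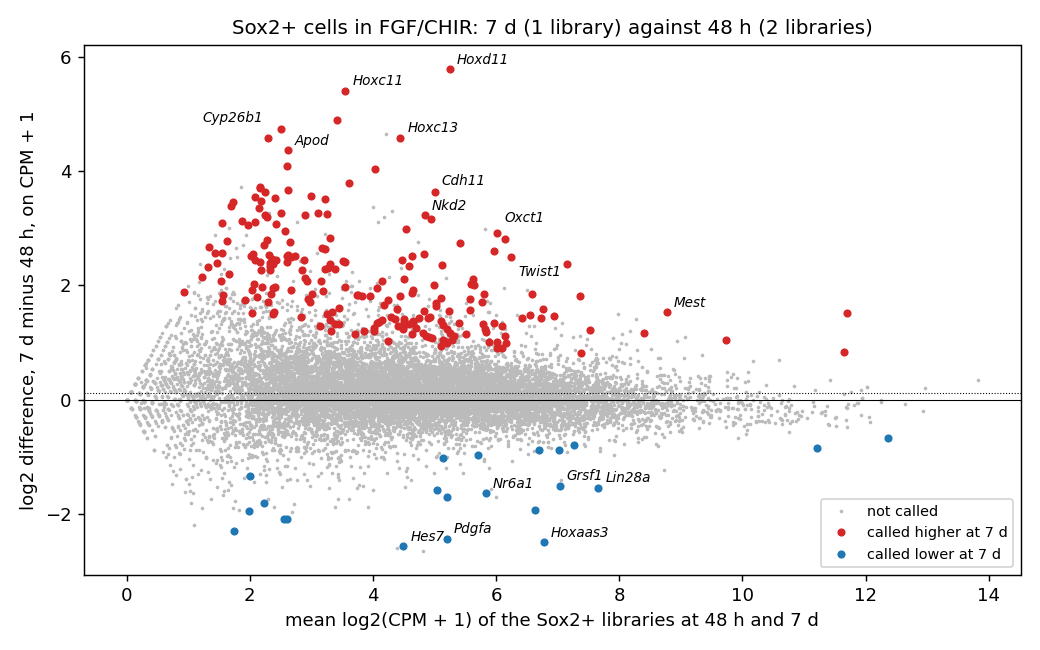
Log2 difference between 7 d (1 library) and 48 h (2 libraries) for the 12943 genes tested, against their mean level on the log2(CPM + 1) scale; red points were called higher, blue points lower and grey points were not called, and the dotted line is the median of all genes at 0.12. Hoxd11 and Hoxc11 have the highest differences, and the called genes lie mostly above zero.

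Genes of the caudal progenitor state were still read at 7 d, most of them somewhat below their 48 h level. Of the 13 genes in the NMP and caudal epiblast list, all were tested, 0 passed as higher and 1 as lower, 10 were below both 48 h libraries (3465 of 12943 over all genes) and 2 above both (6453 of 12943), with a median log2 difference of -0.57 against 0.12 over all genes tested. Without Tbxt-derived library 1, 2 passed as lower. Nkx1-2, a homeobox gene of the caudal lateral epiblast and preneural tube, read 238 and 234 CPM at 48 h and 189 CPM at 7 d. Its log2 difference was -0.32 ± 0.37 (SE; adjusted p = 0.794, limma). The 7 d value was below both 48 h values, and the difference was smaller than its error.

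Cdx2, one of the Cdx factors that drive posterior Hox genes and axis extension, read 504 and 499.6 CPM at 48 h and 294 CPM at 7 d, a log2 difference of -0.77 ± 0.27 that did not pass (adjusted p = 0.216). It passed as lower without Tbxt-derived library 1 (adjusted p = 0.0171). Cdx1 read 55.3 and 67.2 CPM and then 31.5 CPM. Cdx4 went the other way, from 28.0 and 16.9 CPM to 38.2 CPM. Neither passed (adjusted p = 0.439 and 0.579, limma). The WNT-responsive factor Sp5 read 61.8 and 85.3 CPM at 48 h and 103 CPM at 7 d, and the homeobox gene Evx1 read 71.4 and 72.5 CPM and then 62.4 CPM. These 2 genes also did not pass (adjusted p = 0.866 and 0.967).

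The member that fell was Sp8, a factor related to Sp5. It read 69.2 and 62.1 CPM at 48 h and 19.3 CPM at 7 d, below both, with a log2 difference of -1.71 ± 0.38 (adjusted p = 0.0383, limma). The call was lost without NMP library 3, or 48 h Sox2+ library 1 or 2, or 48 h Tbxt library 1 or 2 (adjusted p up to 0.179). The ligand Fgf8, which maintains the caudal zone, read 24.2 and 14.9 CPM at 48 h and 4.42 CPM at 7 d without passing (adjusted p = 0.106). Wnt3a, the WNT ligand of the NMP niche, was at 68.4, 74.5 and 64.7 CPM in NMPs. It had no read in either 48 h library or at 7 d, which allows up to 0.757 and 0.308 CPM.

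Several of these genes were higher in FGF/CHIR than in Sox2+ cells kept in FGF alone. In the comparison of media at 7 d, limma called 435 genes higher (3.36%) and 725 lower (5.6%) in FGF/CHIR, and 1838 in all without Tbxt-derived library 1. Of the 13 caudal genes, 7 were higher and 2 lower, with a median log2 difference of 1.60 against -0.05 over all genes. Nkx1-2 read 36.1 and 53.8 CPM in FGF, a log2 difference of 2.08 ± 0.37 (adjusted p = 0.00405). Cdx1 read 1.7 and 0 CPM in FGF, a difference of 4.30 ± 0.48 (adjusted p = 0.000196). Cdx4 (3.64), Sp5 (3.91), Evx1 (3.92), Wnt5b (3.05) and Cdx2 (1.60) were the others that passed as higher, with log2 differences as given. The 2 lower were Wnt3a and Grhl3. In the double-negative cells at 7 d in FGF/CHIR, Nkx1-2 stood at 50.5 CPM, Cdx2 at 8.69 CPM and Cdx4 at 1.6 CPM. The medium and time comparisons share the 7 d FGF/CHIR library, so their values are given side by side only.

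**Figure D2:**
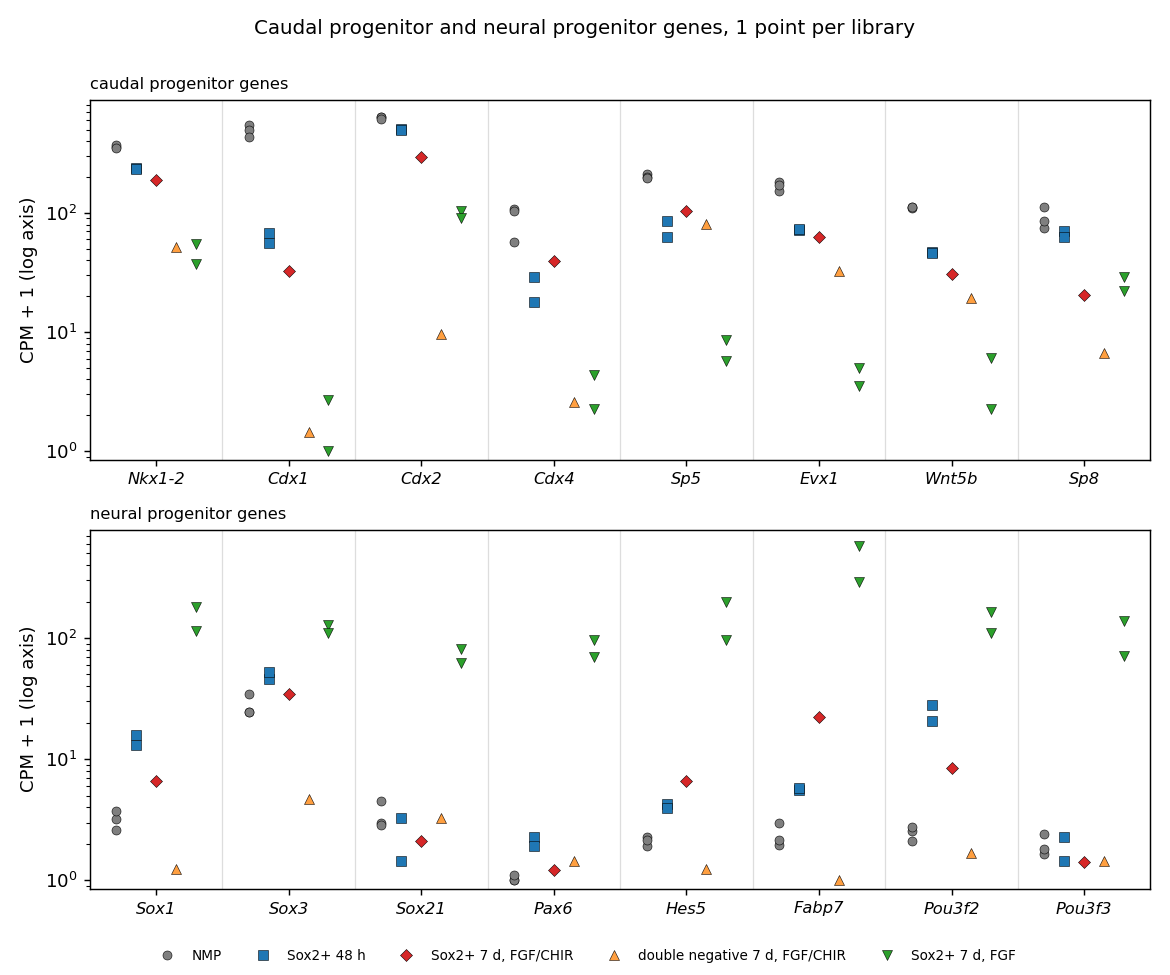
CPM + 1 on a log axis for 8 caudal progenitor genes (top) and 8 neural progenitor genes (bottom) in NMPs, Sox2+ cells at 48 h, and Sox2+ and double-negative cells at 7 d, with 1 point per library. In FGF/CHIR at 7 d (red), Nkx1-2 reads 189 CPM and Pax6 0.206 CPM, and in FGF (green) Pax6 reads 95.3 and 68.9 CPM.

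No neural progenitor gene passed between 48 h and 7 d in FGF/CHIR. Of the 12 listed genes, all were tested by limma and 0 passed in either direction, with a median log2 difference of -0.13. Without Tbxt-derived library 1, Fabp7 passed as higher (adjusted p = 0.02) and Pou3f2 as lower (adjusted p = 0.0307). Sox1, an early neural SoxB1 factor, read 14.9 and 12.1 CPM at 48 h and 5.55 CPM at 7 d. Pax6, a marker of the patterned neural tube, read 1.26 and 0.914 CPM and then 0.206 CPM, which is under the floor of 3 reads. The Notch target Hes5 read 3.28 and 2.97 CPM and then 5.65 CPM. The levels of Sox1, Pax6 and Hes5 were low, and those of Sox1 and Pax6 at 7 d were below both 48 h libraries. In the whole list, 4 genes were above both 48 h libraries and 5 below both (6453 and 3465 of 12943 over all genes). The summed level of the 12 genes was 208 and 218 CPM at 48 h and 216 CPM at 7 d.

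In the FGF cells of the same day these genes stood far higher. Sox1 read 112 and 179 CPM, Pax6 95.3 and 68.9 CPM and Hes5 94.5 and 198 CPM. The log2 differences of FGF/CHIR from FGF were -4.45 ± 0.44, -6.09 ± 0.55 and -4.37 ± 0.42 (adjusted p = 8.67e-05, 5.26e-05 and 7.56e-05, limma). Of the 12 genes, 10 were lower in FGF/CHIR (5.6% of all genes) and 0 higher (3.36%), with a median of -4.08. Among 11 tested neuron genes 0 passed between 48 h and 7 d, and 2 were higher and 1 lower without Tbxt-derived library 1. The proneural factor Neurog2 read 0.757 and 0.457 CPM at 48 h and 14.4 CPM at 7 d (adjusted p = 0.0574), and passed as higher without Tbxt-derived library 1 or FGF Sox2+ library 1 (adjusted p = 0.0327 and 0.00141). The neuronal tubulin Tubb3 read 9.59 and 26.4 CPM and then 14.6 CPM, between the 48 h values.

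The largest rises were in the last Hox genes. In the list of Hox paralog groups 10 to 13, 11 of 12 genes were tested, all 11 were above both 48 h libraries, and 3 passed as higher, against 1.64% of all genes. Over the alternatives run, the number that passed was 1 to 10. Their median log2 difference was 3.37. Hoxd11 read 4.8 and 3.54 CPM at 48 h and 281 CPM at 7 d. NMPs had 0.518, 0.482 and 0.755 CPM. The log2 difference from 48 h was 5.78 ± 0.78 (adjusted p = 0.00342, limma), the highest of all genes tested, and it passed in all 12 fits that left out a library.

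Hoxc11 read 0.505 and 1.14 CPM at 48 h, no more than 5 reads a library, and 75.4 CPM at 7 d. Its log2 difference was 5.41 ± 0.84 (adjusted p = 0.00599). Hoxc13 read 1.77 and 6.17 CPM and then 106 CPM, a difference of 4.58 ± 0.85 (adjusted p = 0.0182) that was lost without 48 h Sox2+ library 1 (adjusted p = 0.11). For each of the 3 genes the 7 d value was above every 48 h and NMP library.

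Hoxd13, the last gene of its cluster, read 2.27 and 3.2 CPM at 48 h and 91.6 CPM at 7 d. Its difference of 4.64 ± 1.68 did not pass in the fit of all libraries (adjusted p = 0.271). The 3 Tbxt-derived 7 d libraries read 229, 4.55 and 10.3 CPM for this gene, and without the first of them the adjusted p was 0.000183. Hoxa13 and Hoxd12 had no read in either 48 h library. Hoxa13 stood at 9.35 CPM at 7 d, at least 12.4-fold above 3 reads of the shallower 48 h library (0.757 CPM), and Hoxd12 at 12.2 CPM, at least 16.2-fold. Hoxc12, which the filter left out, was also unread at 48 h and stood at 7.71 CPM at 7 d, at least 10.2-fold. Without Tbxt-derived library 1, 7 of the 9 genes still tested passed as higher.

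Genes of group 10 were already on at 48 h. Hoxc10 read 196 and 214 CPM at 48 h and 276 CPM at 7 d, and Hoxa10 read 39.8 and 37.9 CPM and then 94.6 CPM. Neither passed (adjusted p = 0.797 and 0.0851), although Hoxa10 did without FGF Sox2+ library 1 or 2 (adjusted p = 0.00551 and 0.00584). NMPs had at most 3.31 CPM of Hoxc10 and 2.9 CPM of Hoxa10. The antisense transcript Hoxa11os rose from 2.78 and 3.31 CPM to 65.3 CPM, a difference of 4.04 ± 0.46 (adjusted p = 0.000917). Its sense partner Hoxa11 read 5.81 and 3.89 CPM and then 23.4 CPM (adjusted p = 0.071). Whether the counting used strand is not given in the sources used here, so reads of the overlapping pair cannot be told apart.

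**Figure D3:**
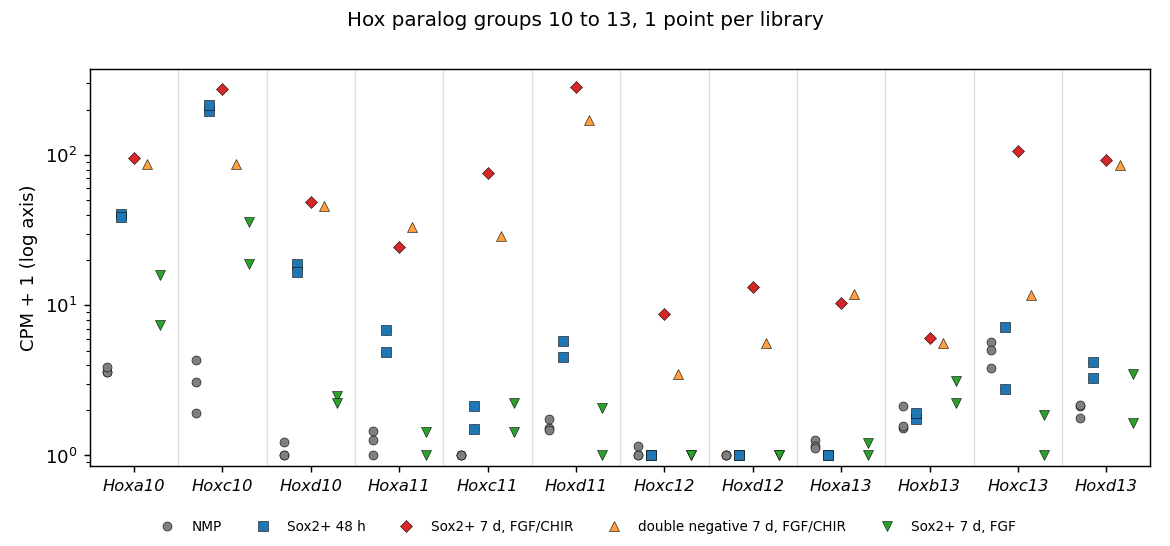
CPM + 1 on a log axis for the 12 genes of Hox paralog groups 10 to 13, with 1 point per library. Sox2+ cells at 7 d in FGF/CHIR (red) are above both 48 h libraries (blue) for every gene shown, and Sox2+ cells in FGF (green) read 1.06 and 0 CPM for Hoxd11.

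Sox2+ cells in FGF stood lower. There Hoxd11 read 1.06 and 0 CPM, Hoxc13 0.849 and 0 CPM and Hoxc10 17.9 and 35.1 CPM. Against FGF cells, 8 of the 11 tested genes were higher in FGF/CHIR (3.36% of all genes) and 0 lower (5.6%), with a median of 4.35. The log2 difference was 7.62 ± 0.78 for Hoxd11 (adjusted p = 0.000196, limma). The double-negative cells of the same FGF/CHIR culture had 169 CPM of Hoxd11 and 84.6 CPM of Hoxd13, but 10.7 CPM of Hoxc13 and 28.0 CPM of Hoxc11, both below the Sox2+ cells. That difference has 1 library on each side and was not tested.

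Hox genes of earlier groups moved less. In groups 1 to 4, 0 of 12 tested genes passed. Hoxd1 read 34.6 and 34.7 CPM at 48 h and 137 CPM at 7 d without passing (adjusted p = 0.0686), and it passed without FGF Sox2+ library 1 or 2 or without Tbxt-derived library 1 (adjusted p = 0.0161, 0.0166 and 0.0269). Hoxb1, an early gene high in NMPs, read 8.08 and 4.34 CPM and then 0.822 CPM (adjusted p = 0.0849), and passed as lower without FGF Sox2+ library 1 or 2 (adjusted p = 0.0155 and 0.0151). In groups 5 to 9, 1 of 14 tested genes passed, as higher (1.64% of all genes). This was Hoxa5, which rose from 79.8 and 47.8 CPM to 189 CPM, a log2 difference of 1.59 ± 0.27 (adjusted p = 0.00906, limma). The call of Hoxa5 was lost in a fit of the 48 h Sox2+ and 7 d libraries alone. The noncoding Hoxaas3, an antisense transcript of the same cluster, (its overlap with sense genes is under the same limit) fell from 253 and 264 CPM to 44.9 CPM, a log2 difference of -2.50 ± 0.27 (adjusted p = 0.000868). Hoxb9 (179.7 and 201, then 291 CPM) did not pass. Among the leave-one-out fits, Hoxc6 (191 and 198, then 102 CPM) passed as lower only without Tbxt-derived library 1 (adjusted p = 0.0278, limma). It also passed with array weights and in a fit of the compared groups alone. In FGF, 12 of the 14 genes of groups 5 to 9 were lower than in FGF/CHIR (3.36% of all genes) and 0 higher (5.6%).

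Start-site sequences are shown for Hoxd11, the gene with the highest difference, and for Hoxd13. They cover 250 bases before to 50 bases after the start in RefSeq's GRCm38.p6 models, an older build than the authors' GRCm39. Of the 12 listed genes, 7 had an entry, with 9 starts in all. The letters TTTAT, the core of sequences bound by Cdx factors, were searched on both strands, overlaps included, and matches are in capitals. Of the 9 start regions 4 held a match, against 40.0% of the 32851 start regions of 300 bases in the table, so the share was close to the background. Hoxd11 has 2 starts, at chr2:74679308-74679607 and chr2:74682073-74682372 on the plus strand, and Hoxd13 has 1, at chr2:74667975-74668274 on the plus strand. The first Hoxd11 start holds 2 matches, the second none, and Hoxd13 holds 2 that overlap.
Hoxd11, first start: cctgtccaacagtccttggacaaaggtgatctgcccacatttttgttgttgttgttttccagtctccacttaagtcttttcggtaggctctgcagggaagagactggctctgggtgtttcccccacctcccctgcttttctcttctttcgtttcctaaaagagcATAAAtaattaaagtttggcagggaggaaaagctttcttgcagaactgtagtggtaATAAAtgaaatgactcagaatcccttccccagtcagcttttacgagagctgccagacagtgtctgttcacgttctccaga
Hoxd11, second start: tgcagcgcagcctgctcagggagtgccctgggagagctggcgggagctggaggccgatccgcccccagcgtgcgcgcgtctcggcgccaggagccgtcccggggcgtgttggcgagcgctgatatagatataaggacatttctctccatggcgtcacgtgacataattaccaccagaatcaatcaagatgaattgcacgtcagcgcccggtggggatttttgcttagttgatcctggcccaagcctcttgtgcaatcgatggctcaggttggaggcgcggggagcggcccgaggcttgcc
Hoxd13: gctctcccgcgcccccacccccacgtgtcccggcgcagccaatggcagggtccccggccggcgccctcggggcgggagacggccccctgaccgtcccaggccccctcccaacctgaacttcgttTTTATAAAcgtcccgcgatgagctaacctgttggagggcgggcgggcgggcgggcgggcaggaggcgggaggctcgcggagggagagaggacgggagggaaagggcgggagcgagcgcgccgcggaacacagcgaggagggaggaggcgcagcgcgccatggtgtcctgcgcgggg

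Some genes that mark developmental time fell. Of 8 such genes, all tested, 2 passed as lower (0.17% of all genes) and 0 as higher (1.64%). Without Tbxt-derived library 1, 3 were lower (70 of 12842 over all genes). Lin28a, an RNA-binding protein that blocks maturation of let-7 microRNAs, read 342 and 345 CPM at 48 h and 117 CPM at 7 d. Its log2 difference was -1.54 ± 0.21 (adjusted p = 0.00211, limma), and the 7 d value was below every 48 h and NMP library. Nr6a1, an orphan nuclear receptor needed for trunk formation, read 813, 1184 and 971 CPM in NMPs, 92.4 and 107 CPM at 48 h and 31.2 CPM at 7 d. Its log2 difference was -1.64 ± 0.35 (adjusted p = 0.0353), a call lost without NMP library 3, or 48 h Sox2+ library 1 or 2 (adjusted p up to 0.166).

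In FGF at 7 d, Lin28a was at 145 and 120.4 CPM and its difference between media did not pass (log2 difference -0.17 ± 0.21, adjusted p = 0.662). Nr6a1 was at 204 and 225 CPM there, 6.86 times the FGF/CHIR level on average. The other timing genes did not pass in the fit of all libraries. Hmga2, a chromatin protein under let-7 control, read 359.8 and 368 CPM at 48 h and 492 CPM at 7 d, and Igf2bp1 read 731 and 667 CPM and then 610.3 CPM. Grsf1, an RNA-binding protein outside the list, fell from 225 and 215 CPM to 76.5 CPM, a log2 difference of -1.51 ± 0.17 (adjusted p = 0.000868), and NMPs had 986 CPM or more.

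The transcripts Mir100hg and Mir99ahg, named for microRNA clusters, rose. Mir100hg read 2.65 and 1.14 CPM at 48 h and 25.9 CPM at 7 d, a log2 difference of 3.26 ± 0.45 (adjusted p = 0.00214). Mir99ahg read 1.01 and 1.14 CPM and then 10.999 CPM, a difference of 2.53 ± 0.34 (adjusted p = 0.00211); it was chosen after its values were seen. Both 7 d values were above every 48 h and NMP library. In RefSeq's GRCm38.p6 models, 3 microRNA hairpins (Mir100, Mirlet7a-2 and Mir125b-1) lie within Mir100hg, and 0 lie within the model of Mir99ahg, which is named for a cluster with miR-99a and let-7c. The libraries were made by oligo-dT priming and did not measure mature microRNAs. Mature sequences, from RefSeq, are shown because the miRNAs for which both transcripts are named share a seed, with the seed (bases 2 to 8) in capitals. The miR-100 and miR-99a arms have 1 seed in common, that of miR-125b differs, and let-7c carries the let-7 seed.
mmu-miR-100-5p: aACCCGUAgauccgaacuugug
mmu-miR-99a-5p: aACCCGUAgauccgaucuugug
mmu-miR-125b-5p: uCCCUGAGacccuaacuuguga
mmu-let-7c-5p: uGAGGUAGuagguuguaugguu

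**Figure D4:**
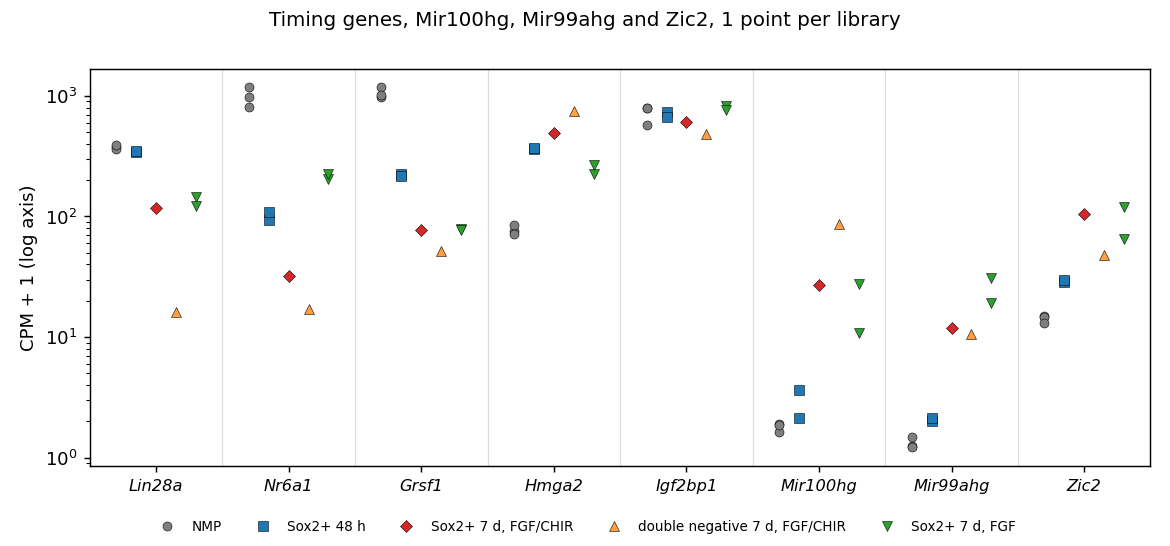
CPM + 1 on a log axis for timing genes, the transcripts Mir100hg and Mir99ahg and Zic2, with 1 point per library. Lin28a falls to 117 CPM in Sox2+ cells at 7 d in FGF/CHIR (red), and Mir100hg rises to 25.9 CPM.

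Some transcription factors of mesenchyme and limb rose. Of 17 mesenchyme genes, all tested, 3 passed as higher (1.64% of all genes) and 0 as lower (0.17%), with a median of 0.80 (0.12 over all genes), and 5 passed as higher without Tbxt-derived library 1. Twist1, a basic helix-loop-helix factor, read 22.5 and 42.7 CPM at 48 h and 179 CPM at 7 d, 5.49 times the 48 h mean. Its log2 difference of 2.49 ± 0.50 passed (adjusted p = 0.0299), but not without NMP library 1, 2 or 3, or 48 h Sox2+ library 1, or 48 h Tbxt library 1 or 2 (adjusted p up to 0.141). Snai1, a repressor of Cdh1, rose from 1.51 and 1.83 CPM to 14.1 CPM, a log2 difference of 2.50 ± 0.34 (adjusted p = 0.00211). Prrx2 rose to 9.35 CPM (adjusted p = 0.0215), except without 48 h Sox2+ library 1 (adjusted p = 0.101). Its relative Prrx1 read 3.79 and 7.31 CPM and then 61.3 CPM (adjusted p = 0.0909), and passed without FGF Sox2+ library 1 or 2 (adjusted p = 0.00058 and 0.000597).

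In the limb and lateral plate list, 2 of 6 tested genes passed, both higher (1.64% of all genes). Lmx1b, a dorsal limb and roof plate homeobox gene, rose from 0.252 and 0.457 CPM to 15.8 CPM, a log2 difference of 3.64 ± 0.46 (adjusted p = 0.00182). Pitx1, a hindlimb factor, rose to 13.2 CPM (adjusted p = 0.0144), and not without 48 h Sox2+ library 1 (adjusted p = 0.0882). Dlx5, outside the lists, rose from 0.757 and 0.229 CPM to 24.0 CPM, a log2 difference of 4.09 ± 0.65 (adjusted p = 0.00604). The limb-field factors Tbx4 and Tbx5 were not tested for low values.

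Double-negative cells of the same day and medium stood higher for 4 of these genes, with 1 library on each side and no test. They had 582 CPM of Twist1, 316 CPM of Prrx1, 82.3 CPM of Snai1 and 72.5 CPM of Prrx2. The summed level of the 17 mesenchyme genes was 446 and 435 CPM at 48 h, 715 CPM at 7 d and 2979 CPM in the double-negative cells. None of the 17 was below 3 reads in the 7 d Sox2+ library, and 12 were above both 48 h libraries (6453 of 12943 over all genes). The 3 with the highest levels among those that did not pass were Col3a1 (154 and 142 CPM, then 259 CPM), Acta2 (97.2 and 46.9, then 27.1 CPM) and Col1a1 (40.4 and 78.6, then 29.6 CPM). In the double-negative cells they read 1152, 118 and 138 CPM. Others were low in the Sox2+ cells. Lum read 0.617 CPM and Dcn 0.617 CPM there, against 54.6 and 13.5 CPM in the double-negative cells, and Pdgfra read 2.57 against 54.9 CPM. In the endoderm list, Gata6 read 2.67 against 99.0 CPM, and Sox17 read 0.103 against 37.9 CPM. The part of other cells in the rises was not tested. Whether a rise came from more RNA in each cell or from more cells of one kind cannot be told apart in bulk libraries.

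**Figure D5:**
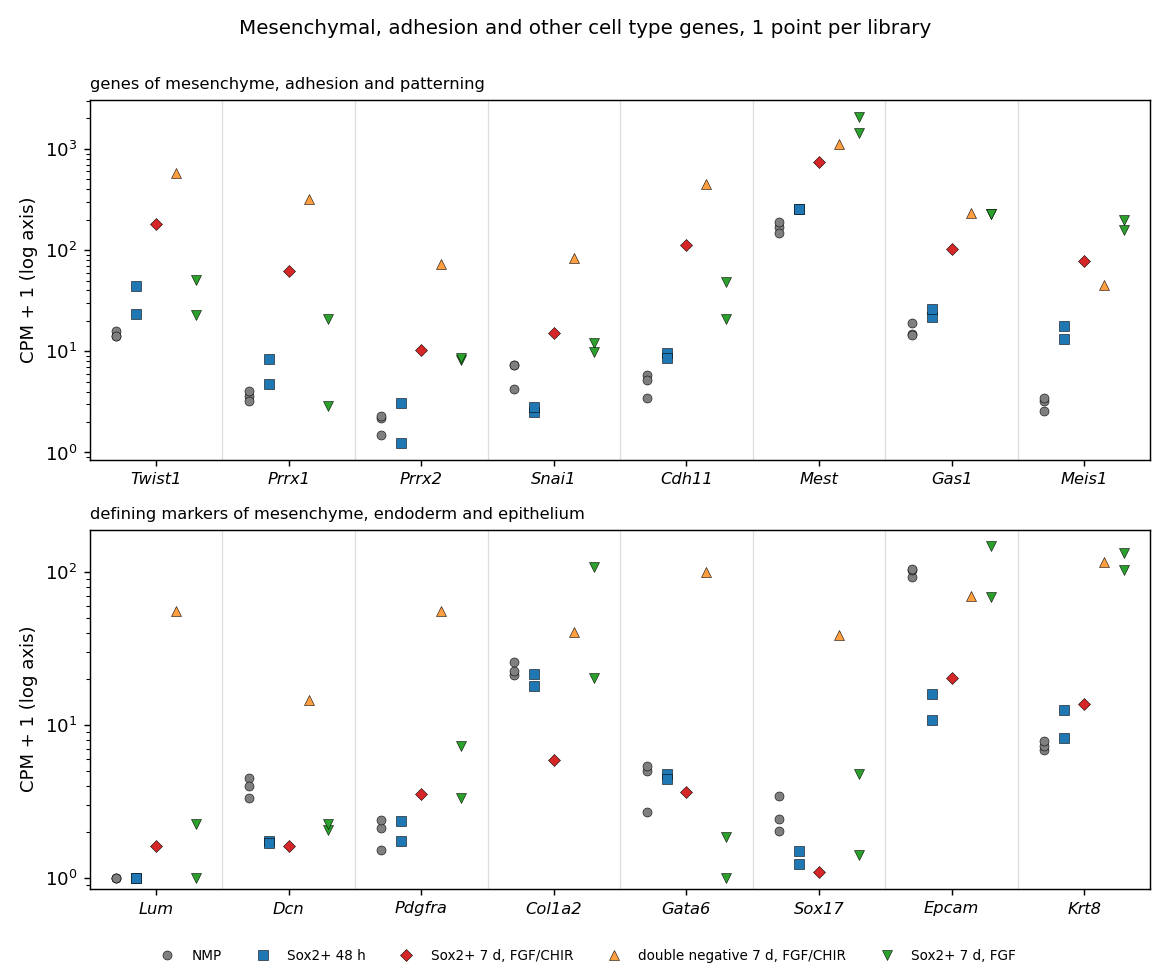
CPM + 1 on a log axis for 8 genes of mesenchyme, adhesion and patterning (top) and for defining markers of mesenchyme, endoderm and epithelium (bottom), with 1 point per library. Sox2+ cells at 7 d in FGF/CHIR (red) have 179 CPM of Twist1 but 0.617 CPM of Lum, and double-negative cells (orange) have 582 and 54.6 CPM.

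Defining genes of other cell types were low in some lists and read in others. Of the 11 endoderm genes 6 were below 3 reads in the 7 d library, as were 6 of the 10 endothelium and blood genes and 4 of the 7 muscle genes. In the glia list this held for 3 of 10, in the neural crest list for 1 of 13, in the epithelium list for 1 of 11 and in the surface ectoderm list for 1 of 5. Among tested genes, 0 of 6 endoderm, 0 of 10 neural crest, 0 of 7 glia and 0 of 10 epithelium genes passed by limma. Without Tbxt-derived library 1 these numbers were 1, 3, 1 and 0, all higher (425 of 12842 over all genes). Of the pluripotency lists 0 of 9 naive and 0 of 8 epiblast genes passed. The summed level of the 10 glia genes was 84.7 and 121 CPM at 48 h and 221 CPM at 7 d, with Nfia at 74.2 CPM (adjusted p = 0.168) as 1 of 6 members above both 48 h libraries. Nfia passed without FGF Sox2+ library 1 or 2 (adjusted p = 0.0174 and 0.0172). In the presomitic and somite list the clock gene Hes7 fell from 57.3 and 50.3 CPM to 8.22 CPM, a log2 difference of -2.57 ± 0.40 (adjusted p = 0.00556). The Notch modifier Lfng rose from 2.02 and 2.51 CPM to 11.3 CPM (adjusted p = 0.0204), except without 48 h Sox2+ library 1 or 2 (adjusted p up to 0.106). Tbx6, the presomitic master factor, was at 0.206 CPM at 7 d, under the floor.

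Among genes of the dorsal neural tube, Zic2, a zinc-finger factor, rose. Zic2 rose from 27.8 and 28.8 CPM to 104 CPM, a log2 difference of 1.85 ± 0.38 (adjusted p = 0.028), except without NMP library 3, or 48 h Sox2+ library 1 or 2 (adjusted p up to 0.134). Zic1 was already at 192 and 182 CPM at 48 h and read 347 CPM at 7 d without passing. Pax3 read 21.7 and 20.1 CPM and then 59.7 CPM (adjusted p = 0.714; 0.0438 without Tbxt-derived library 1). Pax7, another dorsal factor, was at 0.308 CPM, against 18.0 and 32.6 CPM in FGF. FGF cells read 64.5 and 119 CPM of Zic2, and the log2 difference between media, 0.25 ± 0.38, did not pass (adjusted p = 0.738).

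Of the WNT targets 1 rose. Of 14 genes, all tested, 12 were above both 48 h libraries (6453 of 12943 over all genes), 1 passed as higher (1.64% of all genes) and 0 as lower, and 4 as higher without Tbxt-derived library 1. Nkd2, a feedback inhibitor that binds Dishevelled, rose from 7.07 and 9.83 CPM to 86.6 CPM, a log2 difference of 3.23 ± 0.44 (adjusted p = 0.00225). In FGF it read 1.7 and 1.25 CPM. Axin2, the general readout of WNT signalling, read 156 and 168 CPM at 48 h and 251 CPM at 7 d (adjusted p = 0.853), and Lef1 read 168 and 153 CPM and then 227 CPM (adjusted p = 0.329). The secreted deacylase Notum read 129 and 141 CPM and then 251 CPM. It passed only without Tbxt-derived library 1 (adjusted p = 0.0183, limma) and in a fit of the compared groups alone. Of 8 tested WNT ligands 1 passed: Wnt4 rose from 1.14 and 0.571 CPM to 16.6 CPM, a log2 difference of 3.26 ± 0.44 (adjusted p = 0.00211). Wnt5b read 46.4 and 44.8 CPM and then 29.7 CPM without passing.

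Of 12 FGF feedback genes, 0 passed by limma, with or without Tbxt-derived library 1 (median 0.06). Dusp6, an ERK phosphatase, read 172 and 181 CPM at 48 h and 197 CPM at 7 d, and Spry2, an inhibitor of receptor signalling, read 54.0 and 54.4 CPM and then 56.5 CPM. The ligand Pdgfa fell from 93.8 and 76.1 CPM to 14.8 CPM, a log2 difference of -2.44 ± 0.30 (adjusted p = 0.00161), and stood at 119.9 and 83.9 CPM in FGF. The guidance gene Sema6a fell from 190.4 and 192 CPM to 49.6 CPM, a log2 difference of -1.93 ± 0.29 (adjusted p = 0.00497). Fgfr2, chosen after its values were seen, rose from 2.65 and 4.23 CPM to 13.4 CPM (adjusted p = 0.0215), and not without 48 h Sox2+ library 1 (adjusted p = 0.133).

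In the retinoic acid list 2 of 11 tested genes rose (1.64% of all genes) and 0 fell, and 5 rose without Tbxt-derived library 1 (425 of 12842 over all genes). Cyp26b1, an enzyme that breaks down retinoic acid, read 0 and 0.229 CPM at 48 h, at most 1 read a library, and 28.5 CPM at 7 d. Its log2 difference was 4.73 ± 0.52 (adjusted p = 0.000868). FGF cells had 39.5 and 67.6 CPM. The related Cyp26a1, which is WNT- and FGF-responsive in the tailbud, read 21.6 to 26.8 CPM in NMPs, 1.26 and 1.14 CPM at 48 h and 0.103 CPM at 7 d (adjusted p = 0.128). The receptor Rara rose from 17.4 and 16.7 CPM to 47.6 CPM, a log2 difference of 1.43 ± 0.26 (adjusted p = 0.0156), except without 48 h Sox2+ library 1 or 2 (adjusted p up to 0.083). The synthesis enzyme Aldh1a2 was at 1.95 CPM and was not tested.

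BMP and hedgehog components rose in a few members. Of 16 BMP and TGFb genes, all tested, 2 passed as higher (1.64% of all genes) and 0 as lower, with 13 above both 48 h libraries (6453 of 12943 over all genes) and a median of 1.06 (0.12 over all genes), and 6 passed without Tbxt-derived library 1. The ligand Bmp4 rose from 5.81 and 2.29 CPM to 22.2 CPM (log2 difference 2.29, adjusted p = 0.0156), except without 48 h Sox2+ library 2 (adjusted p = 0.0866), and read 217 CPM in the double-negative cells. The BMP target Id2 rose from 124 and 117 CPM to 281 CPM (adjusted p = 0.0159), except without 48 h Sox2+ library 1 or 2 (adjusted p up to 0.0891). Id3 read 176 and 207 CPM and then 439 CPM (adjusted p = 0.085), and passed without FGF Sox2+ library 1 or 2 or Tbxt-derived library 1 (adjusted p = 0.0217, 0.0216 and 0.0356). Of 9 tested hedgehog genes 2 passed as higher (1.64% of all genes). Gli2, a pathway effector, rose from 17.4 and 17.4 CPM to 49.1 CPM (adjusted p = 0.0379), except without NMP library 3, or 48 h Sox2+ library 1 or 2, or Tbxt-derived 7 d library 2 (adjusted p up to 0.152). Gas1, a co-receptor, rose from 20.9 and 24.9 CPM to 102 CPM, a log2 difference of 2.11 ± 0.22 (adjusted p = 0.000868, limma). The pathway target Ptch1 (27.1 and 32.8, then 43.9 CPM) and Gli3, a factor related to Gli2 (172 and 181, then 225 CPM), did not pass. Of 11 tested Notch genes 0 passed by limma.

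In the adhesion list 2 of 9 tested genes passed, and in the matrix list 1 of 12, all higher (1.64% of all genes). The mesenchymal cadherin Cdh11 read 8.71 and 7.54 CPM at 48 h, 112 CPM at 7 d and 448 CPM in the double-negative cells, a log2 difference from 48 h of 3.63 ± 0.43 (adjusted p = 0.00161). Cdh6, of neural and crest cells, rose from 3.79 and 4.34 CPM to 26.0 CPM (adjusted p = 0.00893), except without 48 h Sox2+ library 1 (adjusted p = 0.0598). The neural cadherin Cdh2 read 94.6 and 105 CPM and then 96.4 CPM. The collagen Col2a1 rose from 11.9 and 8.23 CPM to 46.1 CPM, a log2 difference of 2.11 ± 0.32 (adjusted p = 0.00449). The imprinted gene Mest rose from 256 and 256 CPM to 743 CPM, a log2 difference of 1.53 ± 0.23 (adjusted p = 0.00398), as the only one of 14 tested imprinted genes to pass, with 2 passing without Tbxt-derived library 1. Igf2 read 626 and 605 CPM and then 818 CPM.

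Other genes with large rises had mixed roles. Apod, a lipid carrier, rose from 0.252 and 0.457 CPM to 26.9 CPM, a log2 difference of 4.37 ± 0.49 (adjusted p = 0.000868). Tfap2c, an ectodermal and germ cell factor, rose to 30.5 CPM from 1.51 and 2.06 CPM (adjusted p = 0.00149), and Tmem119 rose to 26.5 CPM from 1.51 and 1.14 CPM (adjusted p = 0.00211). Cd40, a receptor of the TNF family, rose to 28.6 CPM (adjusted p = 0.0025), above every other library of the series. Ism1, a secreted protein, rose from 2.27 and 2.29 CPM to 44.2 CPM (adjusted p = 0.0107), except without 48 h Sox2+ library 1 or 2 (adjusted p up to 0.0606). The netrin receptor Unc5c, unread in either 48 h library, reached 23.0 CPM, at least 30.4-fold above the floor there, and Gadd45g reached 21.0 CPM. Their calls (adjusted p = 0.0437 and 0.0471) held in 4 of the 12 and 5 of the 12 leave-one-out fits, and were lost for both without any 1 NMP library or any 1 library of the 48 h groups, among others.

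Among single genes chosen after their values were seen, and tested as no group, were 4 enzymes that rose. Oxct1, which activates acetoacetate, read 28.0 and 18.1 CPM at 48 h and 176 CPM at 7 d, a log2 difference of 2.91 ± 0.26 (adjusted p = 0.000568, limma). Acadl, an acyl-CoA dehydrogenase of beta-oxidation, rose from 7.32 and 7.09 CPM to 64.5 CPM, a log2 difference of 2.996 ± 0.29 (adjusted p = 0.000568). Bdh1, which interconverts ketone bodies, rose from 10.9 and 8.46 CPM to 52.9 CPM, a log2 difference of 2.35 ± 0.35 (adjusted p = 0.00398). These 3 genes passed in all 12 leave-one-out fits. Crat, a carnitine acyltransferase, rose from 2.27 and 1.14 CPM to 9.25 CPM (adjusted p = 0.028), except without NMP library 3, or 48 h Sox2+ library 2 (adjusted p up to 0.151). In FGF, Oxct1 was at 128 and 95.2 CPM and Bdh1 at 4.67 and 8.76 CPM, and Bdh1 differed between media (log2 difference 2.86 ± 0.35, adjusted p = 0.000329) where Oxct1 did not pass (adjusted p = 0.127).

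Growth-related lists were largely without calls. None of 14 proliferation, 10 tested p53 target, 11 cholesterol synthesis, 12 glycolysis and hypoxia or 9 tested immediate early genes passed by limma, and at most 1 per list did without Tbxt-derived library 1. Of the p53 targets, 9 were below both 48 h libraries (3465 of 12943 over all genes) and 1 above both, with a median log2 difference of -0.63. Of the proliferation genes, 11 were above both (6453 of 12943 over all genes) and 2 below both, with a median of 0.42. Top2a read 142 and 161 CPM at 48 h and 252 CPM at 7 d, and Pcna 392 and 329.6 CPM and then 324 CPM. Among 7 CDK inhibitors 1 passed, as lower (0.17% of all genes). This was Cdkn2a, which fell from 50.0 and 63.1 CPM to 18.0 CPM (adjusted p = 0.038, limma). The call was kept in 6 of the 12 leave-one-out fits. It was lost without NMP library 1, or 48 h Sox2+ library 1 or 2, or 48 h Tbxt library 1 or 2, or Tbxt-derived 7 d library 2. The ribosomal protein gene Rps12 fell, from 7379 and 6037 CPM to 4168 CPM (log2 difference -0.68, adjusted p = 0.024), except without 48 h Sox2+ library 1 (adjusted p = 0.121). Smaller falls were called for Fbxw9 (-0.97), Psrc1 (-0.88), Sms (-0.87) and Rps27l (-0.85), as log2 differences, with adjusted p of 0.0324, 0.0247, 0.0232 and 0.0489. None of these 4 calls held in all 12 leave-one-out fits: each was lost without 48 h Sox2+ library 1 or 2 (adjusted p up to 0.24), and Rps27l kept it in 2 of the 12. Reads of Rps12 and Rps27l may be shared with near-identical copies. Ribosomal protein transcripts as a whole made up 15.3 and 13.6% of reads at 48 h and 11.9% at 7 d.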

How the data were processed

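Bulk RNA was measured in 15 libraries of sorted cells, made with oligo-dT priming and unique molecular identifiers per the labels' protocols. The deposited table gives the authors' CPM, in which the rows of each library sum to the same total. STAR 2.7, SAMtools 1.21 and the build GRCm39 are listed per the submitters' processing notes, while annotation, counting step, strand and multi-mapping reads stay not given in the sources used here. Of 78409 rows, 21909 carry no gene name (1.10 to 1.81% of CPM) and 92 are ERCC spike-ins. These were left out, and 627 rows that share 311 symbols were summed, which left 56092 named genes. Low values lie on steps, but only 71.1 to 78.7% of values are whole multiples within 0.01 reads, so whole reads were not recovered and no count test was run. Depths are estimates from those steps.

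The 12943 genes that reached 5 CPM in 2 or more libraries entered limma 3.58.1 in R 4.3.3 on log2(CPM + 1), in 1 fit of all groups with 7 residual degrees of freedom and adjustment over all genes. The single 7 d library was given the spread of the replicated groups. Where a group is compared by size, 4-fold on CPM + 1 was used. The scripts were tested on simulated data. The alternatives were other pseudocounts, filters, scalings and sample sets, array weights, a 2-fold minimum, a replicate block, and leaving out each of 12 libraries.

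Named genes were drawn from the 15 largest called changes in each direction with at least 20 CPM in the higher group. Among those lower, 14 met this. Predicted (Gm or Rik), mitochondrial and pseudogene symbols were left out. In each gene list, named genes were drawn from up to 5 called members and the 3 highest members that did not pass. Genes named outside this rule were chosen after their values were seen: Acadl, Aldh1a2, Axin2, Bdh1, Cdx1, Cdx4, Crat, Cyp26a1, Dcn, Evx1, Fabp7, Fgfr2, Hes5, Hoxa11, Hoxa13, Hoxb1, Hoxc12, Hoxd12, Lef1, Lum, Mir99ahg, Oxct1, Pax3, Pax6, Pax7, Pdgfra, Pou3f2, Prrx1, Sox1, Sox17, Spry2, Tbx4, Tbx5, Tbx6 and Wnt3a, and genes given only in a comparison of media. The gene lists and the comparison were proposed with earlier results of these data known. Tdgf1, a list member, was not analysed here, and 1 other list member is not reported here. Sequences are from RefSeq's GRCm38.p6 tables.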

Additional observations from a re-analysis of the deposited data

Results flagged for a closer look

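Among genes picked by the naming rule, 4 passed in opposite directions in FGF/CHIR and FGF at 7 d against the same 48 h libraries. Other genes were not searched for this. For each of the 4, the direct comparison of the media passed by limma. The log2 difference of FGF/CHIR from FGF at 7 d was 5.69 for Hoxa11os, 5.15 for Nkd2, 2.60 for Hoxa5 and -2.74 for Nr6a1. The first 3 were higher in FGF/CHIR and lower in FGF than at 48 h, and Nr6a1 the reverse. Hoxa11os was already under the floor of FGF Sox2+ library 2 (3.76 CPM) at 48 h, so that library could not show a fall. Nkd2 stood at 1 read (1.25 CPM) in the same library. Both comparisons share the 48 h libraries as controls.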

How the results depend on the processing

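The number of genes called between 7 d and 48 h, 234 as reported, was 153 with quantile normalization, 1409 with array weights (whose estimation did not reach its tolerance), 479 in a fit of the compared groups alone and 16 against a 2-fold minimum. Leaving out 1 library at a time gave 87 to 495. For FGF/CHIR against FGF at 7 d, 1160 as reported, it was 743 with a filter of 20 CPM, 2039 with array weights, 181 against a 2-fold minimum and 864 to 1838 without 1 library. Genes past 4-fold, 123 as reported, were 221 with a pseudocount of 0.25, 51 with a pseudocount of 4 and 178 to 195 without 1 of the 48 h libraries. The cause of these shifts was not tested, beyond the smaller number of genes or the stricter null that a setting uses by construction. Of 48 named genes that were called, 9 passed under every alternative in which they were tested, and 0 reversed. Not every called gene was tested in each alternative: the fit of the compared groups alone held 10462 genes.

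With a replicate block the counts were 224 and 1154. Over 21 same-numbered pairs the correlation of deviations ran from -0.19 to 0.48, 4 of them over 0.1. The highest were NMPs with 48 h Tbxt (0.48 and 0.46). The estimated block correlation was -0.06. In groups of 2 libraries the deviations mirror each other, so these pairs are not independent. This check cannot settle whether the labels' replicate numbers pair the samples. The 7 d library has no replicate, so its own spread is unknown.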
